A study of Mus musculus with 8 samples.

Results

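The genes described here are 38 mouse genes of oxidant defence, taken as a list of names: the regulators Nfe2l1, Nfe2l2 and Keap1, the quinone reductase Nqo1, and the enzymes, carriers and modulators of the glutathione, thioredoxin, peroxiredoxin, superoxide and catalase systems. All 38 symbols were found among the 55276 in the count table, and all 38 passed the filter on low counts. They were compared between 2 fractions of esophageal epithelial cells from C57BL6 mice aged 14 to 15 weeks. Cells that bound an antibody to integrin beta-1 and excluded DAPI were parted by flow cytometry into a fraction dim for Cyto-ID, a dye of autophagic vesicles (Cyto-ID Low), and a fraction bright for it (Cyto-ID High). Each of 4 animals, named Female1, Female2, Male1 and Male2, gave 1 bulk RNA-seq library of each fraction, which makes 8 libraries and n = 4 per fraction. No genetic change or drug treatment is named in the labels, so the fractions differ by the sort alone, and the sources used here give no fluorescence value for the gates.

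Nrf2, the product of Nfe2l2, is a transcription factor that Keap1 holds in the cytoplasm and passes to a ubiquitin ligase until oxidants or electrophiles modify Keap1. Freed Nrf2 pairs with small Maf proteins on antioxidant response elements and raises genes for glutathione synthesis, NADPH supply and detoxification. Glutathione and thioredoxin are the main thiol reductants of the cell, and both draw their electrons from NADPH. In stratified squamous epithelium this pathway is known for its link to cornification, since mice that lack Keap1 develop a hyperkeratotic esophagus.

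Libraries held 26285150 to 29301054 counts. The quasi-likelihood test of edgeR, run on all genes with sex as a covariate, called 8440 of 17344 tested genes at a Benjamini-Hochberg adjusted p under 0.05, or 48.7%. All 16 basal keratinocyte markers were called lower in High, where their summed level was 3016 to 4804 CPM (the count scaled for library size by edgeR's TMM method) against 23704 to 28213 CPM in Low. Of 22 suprabasal markers, 18 were called higher and 0 lower, with sums of 12639 to 31331 CPM in Low and 159120 to 266913 CPM in High. Pan-epithelial markers summed to 8285 to 11388 CPM in Low and to 22474 to 35148 CPM in High, with 6 of 10 called higher and 2 lower. The protocol in the labels speaks of basal cells for both fractions. The part of this difference in layer markers in any result below was not tested, and in bulk RNA fewer cells of a type and less RNA per cell cannot be told apart. Summed fibroblast markers ran from 409 to 606 CPM in Low and from 64.8 to 523 CPM in High, with 2 of 12 called lower. Gastric markers stood at 19.1 CPM in Low and 115 CPM in High of Female2, against at most 1.08 CPM in each other library.

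The core of the antioxidant response element, TGACNNNGC, was searched on both strands in RefSeq promoter windows of the GRCm38.p6 assembly, from 250 bases before to 50 bases after a start. A window was found for 34 of the 38 genes, and 9 of these held the core, or 26.5%, against 13.99% of 27025 genes with a window. The core lay in the windows of 4 of 17 members called higher, 2 of 7 called lower and 3 of 10 not called. The stretches below are shown because they hold the same core near a RefSeq start of genes called in opposite directions and of genes that were not called. Each is printed 5′ to 3′ on the strand of its gene, with the core in capitals. It reads forward in Gstm5 and lies on the opposite strand in the other 6. Srxn1, called higher, with the core 28 bases after the start, and Nfe2l2, not called, with the core 240 bases before it, also held a match and are not printed.
G6pdx: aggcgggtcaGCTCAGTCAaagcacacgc
Gstm5: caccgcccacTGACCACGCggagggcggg
Mgst1: gcggggcttgGCACGGTCAggaggcgggg
Gclm: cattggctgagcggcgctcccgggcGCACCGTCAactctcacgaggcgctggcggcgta
Sod1: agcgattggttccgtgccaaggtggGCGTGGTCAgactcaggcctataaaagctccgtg
Prdx1: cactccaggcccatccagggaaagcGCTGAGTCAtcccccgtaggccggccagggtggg
Txnrd1: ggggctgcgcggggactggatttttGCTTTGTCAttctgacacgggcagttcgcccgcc
G6pdx, Gstm5 and Mgst1 were called higher in Cyto-ID High, Gclm and Sod1 were called lower, and Prdx1 and Txnrd1 were not called. The stretch of G6pdx is chrX:74428919-74428947 on the minus strand, with the core 57 bases before the RefSeq start. Those of Gstm5 and Mgst1 are chr3:107895802-107895830 and chr6:138140461-138140489 on the plus strand, 42 and 56 bases before it. Gclm lies at chr3:122245398-122245456 and Sod1 at chr16:90220681-90220739, both plus, with the core 134 and 56 bases before the start. Prdx1 lies at chr4:116685441-116685499 and Txnrd1 at chr10:82859089-82859147, both plus, at 133 and 92 bases. By the GENCODE M21 gene models, the stretches of G6pdx, Mgst1 and Txnrd1 lie inside the gene and that of Gstm5 spans its first base, so they lie before a RefSeq start but not before every annotated start. A match is a run of letters and not a measured binding site.

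Of the 38 genes, 19 were called higher and 9 lower in Cyto-ID High, and 10 were not called (edgeR, adjusted p under 0.05). These are 50.0% and 23.7% of the members, beside 23.4% higher and 25.3% lower among all 17344 tested genes. The members were chosen with earlier results of these data known, so this comparison is a description and not a test. The 4 High libraries lay above all 4 Low libraries for 17 members and below them for 9, where 23.6% and 24.9% of all tested genes did so. The members' median log2 fold change was 0.45, with a range from −3.48 to 2.77, and the median of all tested genes was −0.09. When the libraries were scaled by total counts only, which moved all genes by −0.56 in the median, the members' median became −0.13, with 14 called higher (36.8%) and 11 lower (28.9%). On that scaling 12.6% of all tested genes were called higher and 49.1% lower, with a median of −0.64. In each animal the median High minus Low difference of the members in log2 CPM was above 0, at 0.35, 0.63, 0.22 and 0.63 in Female1, Female2, Male1 and Male2. Together the members took 0.661% to 0.784% of all counts in Low and 0.830% to 0.929% in High, and these ranges did not overlap. Without Gsta4, whose share was 0.0650% to 0.107% in Low and 0.208% to 0.234% in High, the other 37 took 0.583% to 0.677% and 0.620% to 0.696%, which overlapped. A dependence of the fraction difference on sex was tested for as an interaction, which called 0% of tested genes (edgeR). At an unadjusted p under 0.05 it held 19 of the 17344 genes, and 38 in the fit with a replicate block for the animal. Both are far fewer than such a threshold gives by chance. No member reached an unadjusted p under 0.05 in either of these fits, with 2 animals of each sex. At so low a rate this outcome was likely in advance, so these fits cannot decide whether any member depends on sex.

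**Figure D1:**
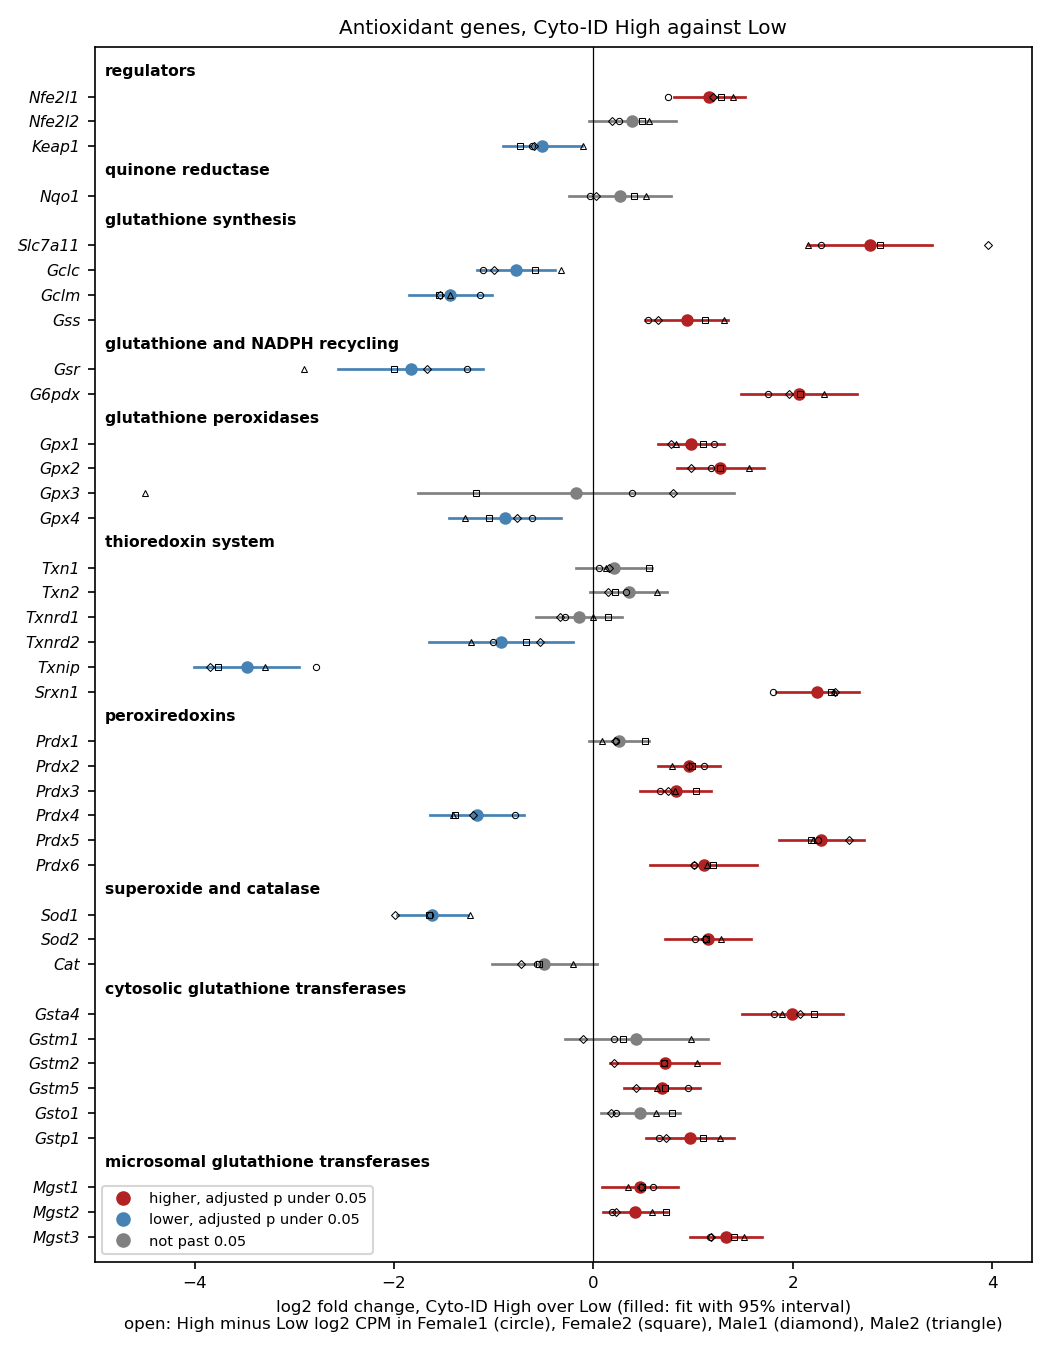
Log2 fold changes of the 38 genes (x axis, Cyto-ID High over Low), grouped by role on the y axis; filled points are the edgeR fit with a 95% interval, coloured by call, and open symbols are the difference in each of 4 animals. The fits run from −3.48 for Txnip to 2.77 for Slc7a11, with members on both sides of 0 in 7 of the 10 role groups and all 9 glutathione transferases above 0, which total-count scaling changed for 4 of them.

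Among the regulators, Nfe2l1 rose, Keap1 fell and Nfe2l2 was not called. Nfe2l1 encodes Nrf1, a membrane-bound relative of Nrf2 that also drives proteasome genes. Values per library are given throughout in the order Female1, Female2, Male1, Male2. Nfe2l1 stood at 188, 162, 178 and 189 CPM in Low and at 317, 393, 409 and 499 CPM in High. Every High library was above every Low library, and the log2 fold change was 1.16 (SE 0.16 and adjusted p = 0.000244 with edgeR). Keap1, the Nrf2 repressor, stood at 49.3, 70.9, 54.4 and 50.4 CPM in Low and 32.1, 42.6, 35.8 and 47.1 CPM in High. The groups did not overlap, but the highest High library, Male2, came close to the lowest Low library, Female1. Its log2 fold change was −0.51 (SE 0.18 and adjusted p = 0.0353 with edgeR), a call that was lost with relative log expression (RLE) size factors and when Low Female2, High Female1, High Female2 or High Male1 was left out. Nfe2l2 itself averaged 333 ± 43.4 CPM in Low and 437 ± 97.9 CPM in High (SD, n = 4 each). Its log2 fold change was 0.39 with a 95% interval from −0.04 to 0.83 (edgeR adjusted p = 0.125). A replicate block for the animal made it a call, at 0.37 (edgeR adjusted p = 0.0440), and with total counts it was −0.20. Nqo1, a quinone reductase and a much used Nrf2 target, averaged 91.4 ± 17.3 CPM in Low and 111 ± 38.4 CPM in High, with a log2 fold change of 0.27 (95% interval −0.24 to 0.78), or −0.33 with total counts.

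The genes of glutathione synthesis moved in opposite directions. Slc7a11, the transport subunit of the cystine/glutamate exchanger xCT, was the member with the largest increase. It stood at 10.1, 8.74, 4.26 and 10.5 CPM in Low and at 49.4, 64.6, 67.0 and 47.1 CPM in High. All High libraries were several times above all Low libraries, with a log2 fold change of 2.77 (SE 0.28 and adjusted p = 4.0e-05 with edgeR), or 6.83-fold. Glutamate-cysteine ligase, the rate-limiting enzyme, is built from the products of Gclc (catalytic) and Gclm (modifier), and both genes fell. Gclm stood at 157, 263, 203 and 217 CPM in Low and at 71.4, 89.9, 69.5 and 80.5 CPM in High, without overlap and with a log2 fold change of −1.43 (SE 0.19 and adjusted p = 0.000175 with edgeR). Gclc stood at 78.2, 68.8, 101 and 61.2 CPM in Low and at 36.4, 45.7, 50.5 and 48.9 CPM in High. Its groups were also apart, and its log2 fold change was −0.77 (SE 0.17 and adjusted p = 0.00456 with edgeR). Gss, whose product adds glycine in the last step, rose from 63.3, 60.6, 67.9 and 70.1 CPM to 92.4, 132, 106 and 174 CPM. The smallest High value, in Female1, was above every Low value, and the log2 fold change was 0.94 (SE 0.19 and adjusted p = 0.0022 with edgeR). Exons of Acss2, Gssos1 and Gssos2 together cover 15.4% of the exon bases of Gss on the opposite strand, and whether counting used strand is not given in the sources used here. Exons on the opposite strand also cover 13.9% of Gstm5 (4933431E20Rik), 11.5% of Prdx2 (Rnaseh2a and Junb together) and 10.9% of Keap1 (Gm16754).

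The genes that keep glutathione reduced were also split. G6pdx encodes glucose-6-phosphate dehydrogenase, which makes NADPH at the entry of the pentose phosphate pathway, and it rose. It stood at 80.5, 109, 82.0 and 117 CPM in Low and at 272, 458, 319 and 580.0 CPM in High, a log2 fold change of 2.06 (SE 0.26 and adjusted p = 0.000152 with edgeR). Ikbkg covers 13.6% of the exon bases of G6pdx on the opposite strand. Gsr, the glutathione reductase that spends NADPH on oxidised glutathione, fell. It stood at 34.7, 31.1, 35.7 and 28.9 CPM in Low and at 14.4, 7.71, 11.2 and 3.81 CPM in High. No High library reached the Low range, and Male2 was the lowest in both fractions. The High libraries had the same order as their summed fibroblast markers (523, 177, 380 and 64.8 CPM) and as the leukocyte (112, 40.5, 81.5 and 10.3 CPM), endothelial, muscle, erythroid and melanocyte sums, whose part was not tested. The log2 fold change of Gsr was −1.83 (SE 0.32 and adjusted p = 0.00116 with edgeR), or 3.56-fold lower in High.

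**Figure D2:**
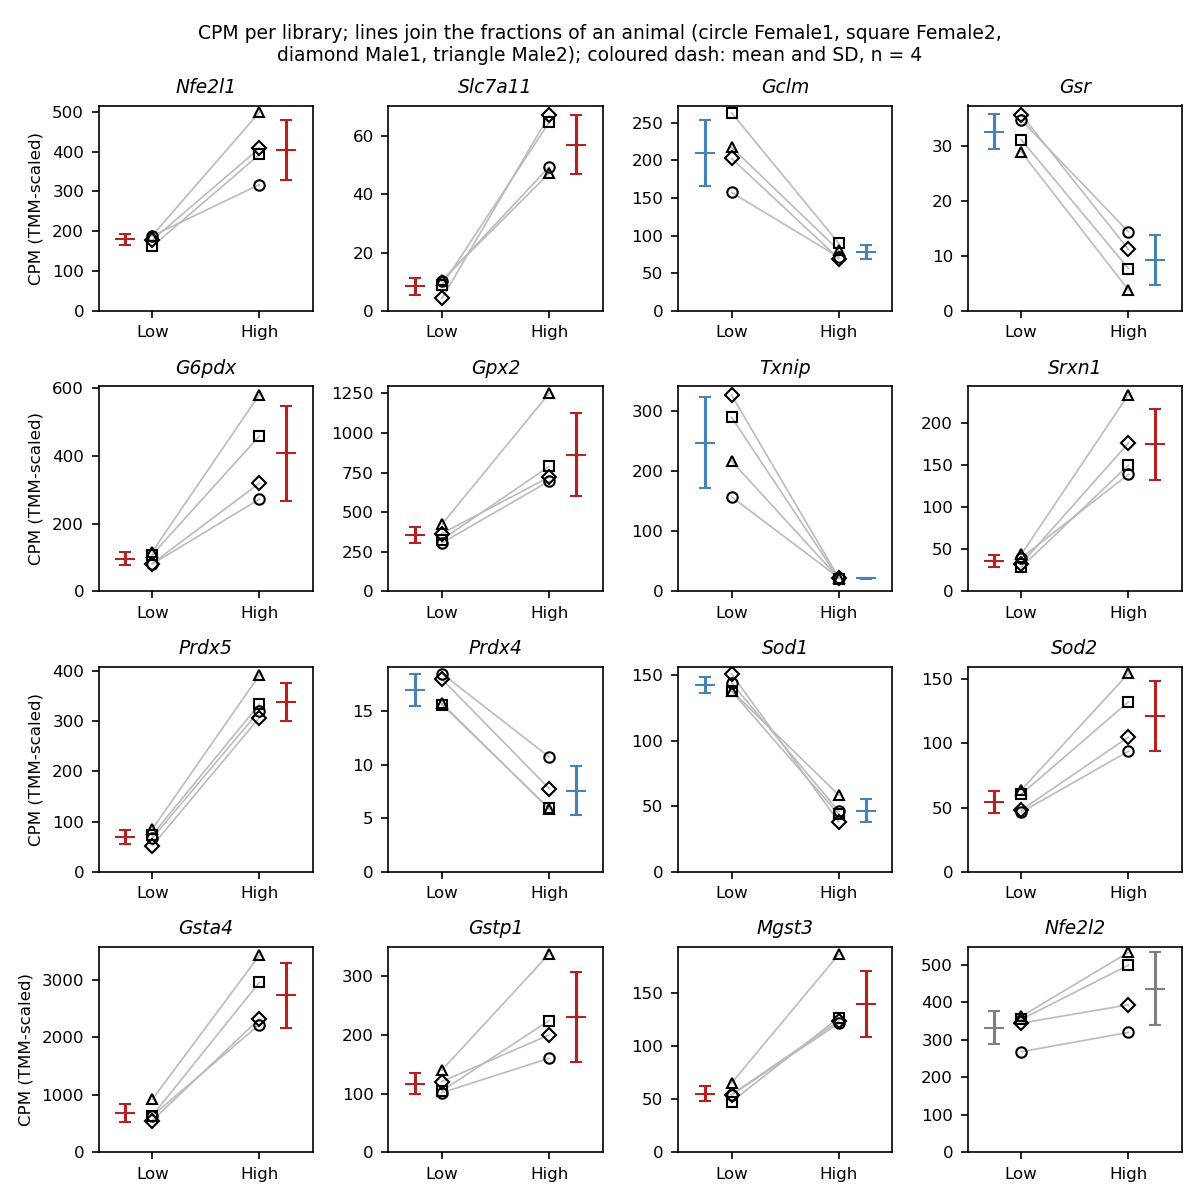
TMM-scaled CPM (y axis, from 0) of 16 of the genes in the Low and High library of each animal (x axis), with grey lines joining an animal and the mean and SD of 4 libraries beside each fraction, coloured by call. The 4 Txnip values in High lie between 21.2 and 22.8 CPM, while in Gpx2 and Mgst3 the High library of Male2 stands above the other 3. Scaled by total counts only, which is not drawn, the Txnip values in High run from 14.9 to 21.5 CPM.

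Of the 4 glutathione peroxidases, Gpx1 and Gpx2 rose, Gpx4 fell and Gpx3 was not called. Gpx2, an epithelial form that reduces hydrogen peroxide with glutathione, stood at 306, 327, 365 and 424 CPM in Low and at 696, 789, 721 and 1249 CPM in High. The groups were apart, and High Male2 stood above the other 3 High libraries. The log2 fold change was 1.28 (SE 0.20 and adjusted p = 0.000497 with edgeR). Gpx1, the widely expressed cytosolic form, stood at 197, 188, 236 and 249 CPM in Low and at 456, 402, 405 and 441 CPM in High, a log2 fold change of 0.98 (SE 0.15 and adjusted p = 0.000454 with edgeR). Gpx4, which reduces lipid hydroperoxides in membranes and restrains ferroptosis, stood at 14.7, 10.2, 12.2 and 11.0 CPM in Low and at 9.53, 4.88, 7.17 and 4.48 CPM in High. The lowest Low library was close above the highest High library, and the log2 fold change was −0.89 (SE 0.25 and adjusted p = 0.0148 with edgeR). That call was lost when Low Female1, Low Male1 or Low Male2 was left out. Gpx3, the secreted form, stood at 9.08, 7.09, 4.35 and 5.01 CPM in Low and at 11.9, 3.09, 7.63 and 0.154 CPM in High. Its High libraries spread over a wider range than its Low libraries and lay on both sides of them (log2 fold change −0.17, 95% interval −1.76 to 1.41, edgeR adjusted p = 0.872). The High libraries of Gpx3 and of Gpx4 had the order that the summed fibroblast markers and 5 other marker lists share, as given for Gsr, and the part of these in the values was not tested.

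In the thioredoxin system the carriers were not called, while 2 genes around them changed most. Txnip, which binds thioredoxin and inhibits it and also restrains glucose uptake, had the largest change of all 38 members. It stood at 157, 289.7, 327 and 217 CPM in Low and at 22.8, 21.2, 22.6 and 22.0 CPM in High. On TMM-scaled CPM the Low libraries spread widely and the High libraries hardly at all, at 248 ± 75.5 and 22.1 ± 0.710 CPM (SD, n = 4 each). Scaled by total counts only, the High values were 21.5, 16.8, 20.2 and 14.9 CPM, in the order of the libraries' TMM factors. The Low values were then 194, 377, 384 and 251 CPM. The narrow spread in High was thus seen with TMM scaling and not with total counts. With TMM scaling the log2 fold change of Txnip was −3.48 (SE 0.24 and adjusted p = 1.3e-05 with edgeR), or 11.1-fold lower in High. The gene lies at chr3:96557957-96561883 in GENCODE M21, and Gm15441 covers 19.4% of its exon bases on the opposite strand. Srxn1, sulfiredoxin, which restores overoxidised peroxiredoxins, rose from 39.7, 28.6, 32.8 and 43.9 CPM to 139, 149.8, 176 and 233 CPM. All High libraries were well above all Low libraries, with a log2 fold change of 2.25 (SE 0.19 and adjusted p = 1.83e-05 with edgeR). The cytosolic pair Txn1 and Txnrd1 had log2 fold changes of 0.21 (95% interval −0.17 to 0.59) and −0.14 (−0.57 to 0.29). Txn1 averaged 291 ± 53.8 CPM in Low and 337 ± 31.1 CPM in High, and with total counts its log2 fold change was −0.34. Txnrd1 averaged 99.7 ± 25.3 and 90.2 ± 15.4 CPM, and with total counts it was called lower, at −0.69 (edgeR adjusted p = 0.0146). Of the mitochondrial pair, Txn2 averaged 76.2 ± 7.88 and 97.7 ± 25.0 CPM (log2 fold change 0.35, 95% interval −0.03 to 0.74, or −0.23 with total counts) and was called higher only in the fit without High Male1, among those that left out 1 library. Txnrd2 had 26 to 37 counts in Low and 7 to 14 in High, or 0.922 ± 0.0863 and 0.482 ± 0.111 CPM. It was called lower at −0.93 (SE 0.32 and adjusted p = 0.0370 with edgeR), a call that was lost without a filter on low counts, with DESeq2 and when any library other than High Female2 was left out.

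Of the 6 peroxiredoxins, which reduce peroxides with electrons from thioredoxin or, for Prdx6, glutathione, 4 rose and 1 fell. Over all tested genes 23.4% were called higher and 25.3% lower. Prdx5, a form of mitochondria, peroxisomes and cytosol, rose most, from 67.1, 73.5, 51.9 and 84.9 CPM to 321, 334, 307 and 392 CPM. The High libraries were close together and far above Low, with a log2 fold change of 2.29 (SE 0.19 and adjusted p = 1.84e-05 with edgeR). Trmt112 covers 19.1% of the exon bases of Prdx5 on the opposite strand. Prdx4, the form of the endoplasmic reticulum, fell from 18.5, 15.6, 18.0 and 15.7 CPM to 10.7, 5.92, 7.78 and 5.86 CPM, with no overlap, the same order in High as Gsr and a log2 fold change of −1.17 (SE 0.21 and adjusted p = 0.00124 with edgeR). Prdx6, which reduces phospholipid hydroperoxides, stood at 216, 307, 250.2 and 361 CPM in Low and at 434, 707, 505 and 795 CPM in High. Every High library was above every Low library, and the log2 fold change was 1.11 (SE 0.24 and adjusted p = 0.0036 with edgeR). Cytosolic Prdx2 stood at 108, 113, 111 and 139 CPM in Low and at 233, 225, 215 and 239.7 CPM in High, a log2 fold change of 0.96 (SE 0.14 and adjusted p = 0.000366 with edgeR). Mitochondrial Prdx3 stood at 14.9, 15.5, 12.3 and 15.4 CPM in Low and at 23.7, 31.7, 20.7 and 27.3 CPM in High. Its groups did not overlap (log2 fold change 0.83, SE 0.16 and adjusted p = 0.00188 with edgeR), but the call was lost with total counts, at 0.25. Cytosolic Prdx1, a Nrf2 target, averaged 165 ± 9.95 CPM in Low and 198 ± 18.4 CPM in High and was not called (log2 fold change 0.26, 95% interval −0.04 to 0.56, or −0.30 with total counts).

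The superoxide dismutases, which turn superoxide into hydrogen peroxide, changed in opposite directions. Sod1, the copper and zinc enzyme of the cytosol, stood at 144, 138, 151 and 138 CPM in Low and at 46.2, 43.9, 38.1 and 58.6 CPM in High. The Low libraries were close together and every High library was far below them, with a log2 fold change of −1.61 (SE 0.16 and adjusted p = 3.63e-05 with edgeR). Sod2, the manganese enzyme of mitochondria, stood at 46.4, 60.3, 48.1 and 63.6 CPM in Low and at 93.8, 132, 105 and 154 CPM in High. It was higher in High in all 4 animals, and its log2 fold change was 1.15 (SE 0.19 and adjusted p = 0.000809 with edgeR). Catalase, Cat, averaged 151 ± 31.6 CPM in Low and 108 ± 30.7 CPM in High, with a lower value in High in each animal. The log2 fold change was −0.49 (95% interval −1.02 to 0.03, edgeR adjusted p = 0.113). With the animal as a replicate block Cat was called lower, at −0.51 (edgeR adjusted p = 0.0112), as it was without Low Female1, with either other filter on low counts and, at −1.09 (adjusted p = 0.00128), with total counts.

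The glutathione transferases, which join glutathione to electrophiles, held no gene called lower. Of the 9 cytosolic and microsomal members 7 were called higher, where 23.4% of all tested genes were. With total counts only Gsta4, Gstp1 and Mgst3 kept that call, where 12.6% of all tested genes were called higher. On that scaling 4 of the 9 had a log2 fold change below 0 (Gstm1, Gsto1, Mgst1 and Mgst2). Gsta4, an alpha-class enzyme for the lipid aldehyde 4-hydroxynonenal, stood at 634, 637, 553 and 922 CPM in Low and at 2224, 2957, 2325 and 3427 CPM in High. The High range began at a level above every Low library, and the log2 fold change was 2.00 (SE 0.23 and adjusted p = 8.33e-05 with edgeR). Gstp1, of the pi class, stood at 102, 105, 121 and 140.1 CPM in Low and at 160.1, 224, 199.8 and 337 CPM in High. It did not overlap and had a log2 fold change of 0.97 (SE 0.20 and adjusted p = 0.00247 with edgeR). Of the mu class, Gstm5 stood at 8.12, 10.6, 10.4 and 12.4 CPM in Low and at 15.7, 17.5, 14.1 and 19.4 CPM in High, without overlap (log2 fold change 0.69, SE 0.17 and adjusted p = 0.00773 with edgeR), and its call was lost with total counts. Gstm2 stood at 57.7, 78.5, 76.0 and 94.2 CPM in Low and at 94.5, 128, 87.8 and 193 CPM in High. Its groups overlapped, since High Male1 was below Low Male2. The log2 fold change of Gstm2 was 0.72 (SE 0.24 and adjusted p = 0.0341 with edgeR), and 0.45 without High Male2. The call was lost without that library and also without Low Female1, Low Male1 or High Female2. It was lost, too, without both libraries of Female2 and with total counts, where the log2 fold change was 0.11. Gstm1 was not called, at 328 ± 81.1 CPM in Low and 452 ± 259 CPM in High (log2 fold change 0.43, 95% interval −0.29 to 1.15). Gsto1, of the omega class, averaged 1085 ± 151 and 1498 ± 292 CPM and missed the threshold (log2 fold change 0.47, SE 0.18 and adjusted p = 0.0502 with edgeR). With the animal as a replicate block Gsto1 was called, with an edgeR adjusted p of 0.0424, as it was with RLE size factors, at least 10 counts in every library, DESeq2 or limma-voom, and when High Female1 or High Male1 was left out.

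The microsomal members are membrane enzymes of glutathione conjugation and leukotriene synthesis, and all 3 were called higher, of which Mgst1 and Mgst2 had the opposite sign with total counts. Mgst3 stood at 53.9, 47.7, 54.3 and 65.3 CPM in Low and at 121, 127, 123 and 186 CPM in High. High Male2 stood above the other 3 High libraries, which were close together and above all Low libraries. The log2 fold change of Mgst3 was 1.33 (SE 0.16 and adjusted p = 0.00012 with edgeR), and 0.75 with total counts. Mgst1 stood at 40.4, 55.6, 55.3 and 74.4 CPM in Low and at 61.1, 77.9, 77.1 and 94.6 CPM in High, and the groups overlapped. Mgst2 stood at 62.0, 46.5, 63.8 and 49.8 CPM in Low and at 70.6, 76.9, 74.7 and 75.0 CPM in High, with the groups just apart. Their log2 fold changes were 0.47 (SE 0.17 and adjusted p = 0.0428 with edgeR) and 0.42 (SE 0.14 and adjusted p = 0.0341 with edgeR). With total counts they were −0.11 and −0.14. Both calls were also lost with no filter on low counts and without both libraries of Female2, and that of Mgst1 with no covariate. The call of Mgst1 was lost, too, without Low Female1, Low Male1, High Female2 or High Male2, and that of Mgst2 without Low Male2, High Female2, High Male1 or High Male2.

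The order of the libraries within each fraction was tallied over the members. No such tally was made over all tested genes, so the counts below do not set the members apart from other genes. Of the 19 members called higher, 15 had their highest High value in Male2 and 17 their highest Low value in Male2, on TMM-scaled CPM. Per total counts these were 8 and 13 of the 19. The TMM factor was smallest in Male2 in both fractions (1.16 in Low and 0.679 in High), so TMM scaling sets its genes higher relative to the other libraries of its fraction than total counts do. High Female1 held the lowest High value for 12 of the 19, or 7 per total counts. The summed suprabasal markers were also highest in Male2, at 31331 CPM in Low and 266913 CPM in High, and their part in these values was not tested. The order of the 4 High libraries equalled that of their summed fibroblast markers for 3 of the 9 members called lower (Gsr, Gpx4 and Prdx4) and 0 of the 19 called higher. It was the reverse of that order for 9 of the 19 called higher and 1 of the 9 called lower. Per total counts the same order was found for 4 of the 9 (Txnip in addition) and 2 of the 19, and the reverse for 0 and 3. The TMM factors of the High libraries (0.944, 0.792, 0.896 and 0.679) and their numbers of detected genes (27395, 24820, 26623 and 22208) had the order of the fibroblast markers too. Division by these factors moves any gene towards the reverse order, compared with total counts. The fibroblast order was shared by 5 other of the 12 marker lists (leukocyte, endothelial, muscle, erythroid and melanocyte). The pan-epithelial and dissociation stress sums had the reverse order, the latter at 11786, 20026, 14713 and 25989 CPM. The part of each was not tested. Without both libraries of Male2, 17 members were called higher and 7 lower. Without both libraries of Female2, which carried the gastric markers, the counts were 16 and 8.

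Levels were compared between members as CPM per kilobase of exon, with exon lengths from GENCODE M21. On this scale the same 6 genes led in both fractions and in the same order: Gsta4, Gsto1, Txn1, Gstm1, Gpx1 and Gpx2. Counts of close copies, described below, were not added here, and adding them could change the places of genes such as Txn1 and Gstm1. In Low, Gsta4 at 542 ± 128 and Gsto1 at 537 ± 74.8 CPM per kb did not differ beyond their spread (SD, n = 4 each). In High, Gsta4 at 2159 ± 446 stood apart from Gsto1 at 741 ± 144 CPM per kb. Txn1 at 321 ± 29.6 and Gpx1 at 295 ± 18.4 CPM per kb lay within the spread of Gstm1, at 307 ± 176, in High. Prdx5 moved from the 20th to the 7th place and G6pdx from the 21st to the 9th. Txnip moved from the 8th place, at 79.3 ± 24.2 CPM per kb, to the 32nd, at 7.09 ± 0.227. Slc7a11 remained a gene of low level per length, with 0.603 ± 0.206 CPM per kb in Low and 4.10 ± 0.735 in High. Exon length counts every annotated transcript, so genes with long minor transcripts, such as Sod2 with 10.008 kb, read low on this scale.

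**Figure D3:**
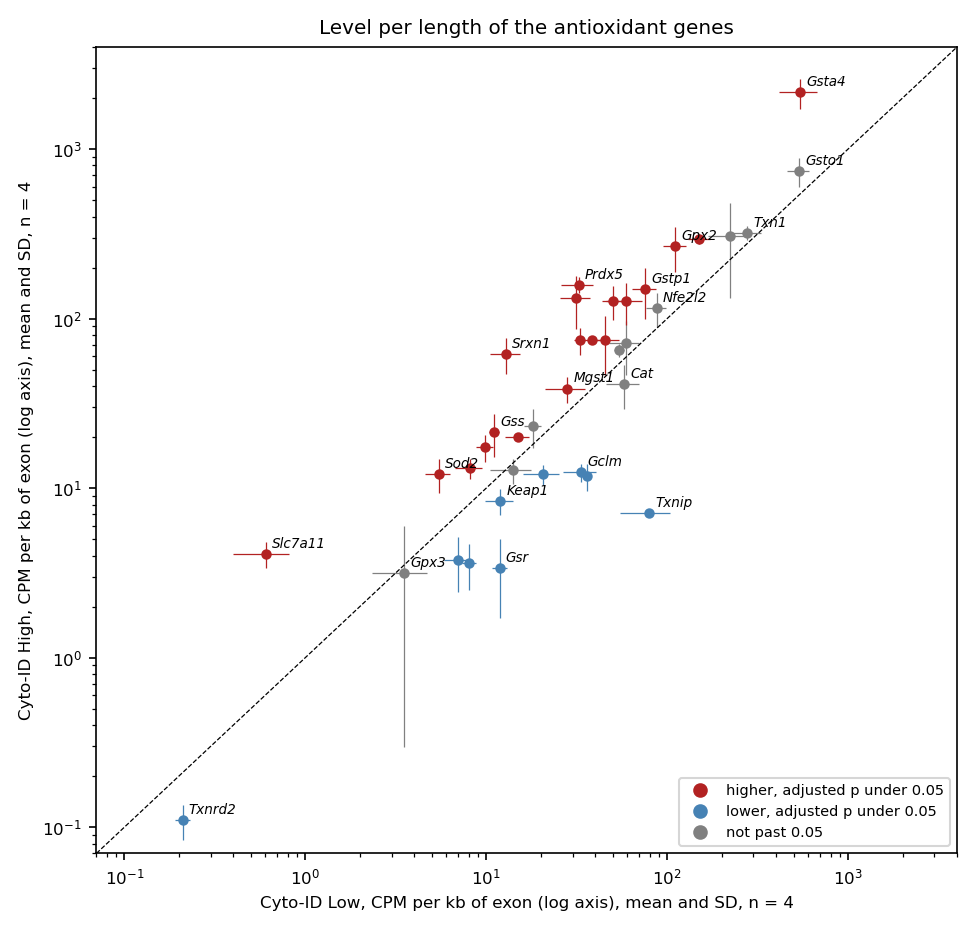
Mean level per length of the 38 genes in Cyto-ID Low (x axis) and Cyto-ID High (y axis), in CPM per kb of exon on log axes, with bars for the SD of 4 libraries, points coloured by call and 19 genes labelled; the dashed line marks equal levels. Gsta4 lies at the top in both fractions, Txnip far below the line and Slc7a11 far above it at a low level.

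The rest of the pathway was read from a list of 80 other genes, of which 76 were tested. This list, too, was chosen with earlier results of these data known. Of these, 34 were called higher (44.7%) and 13 lower (17.1%), with a median log2 fold change of 0.30, beside 23.4%, 25.3% and −0.09 over all tested genes. With total counts 21 of the 76 were called higher (27.6%) and 31 lower (40.8%), beside 12.6% and 49.1% of all tested genes. Among Nrf2 partners and repressors 7 of 11 were called higher and 1 lower. Of this group, Mafk, Maff, Bach2, Cul3 and Gsk3b lost their calls with total counts, and Mafg and Rbx1 became called lower. Of the other Nrf2 targets 10 were called higher and 4 lower of 21 tested, and of the genes of glutathione turnover and glutaredoxins 8 and 2 of 14. In the latter group Glrx2, Glrx3, Glrx5, Hagh and Esd lost their calls with total counts, and Chac2 and Oplah became called lower. The other transferases gave 7 and 4 of 17, and the other peroxidases, reductases and dismutase 2 and 2 of 13. Abcc2, Gpx5, Gpx6 and Ltc4s had too few counts to be tested.

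Me1, the cytosolic malic enzyme and a source of NADPH, rose most of the 76, from 30.1, 48.7, 20.3 and 71.1 CPM to 314, 587, 354 and 545 CPM. Every High library was above every Low library, by 3.41 on the log2 scale (SE 0.41 and adjusted p = 0.000117 with edgeR). Nfe2l3, which encodes Nrf3, a further relative of Nrf2, rose from 4.71 ± 2.06 to 46.7 ± 12.0 CPM (log2 fold change 3.30, SE 0.34 and adjusted p = 4.68e-05 with edgeR). The transferases Gsta2 and Gstm6 rose by 2.59 and 2.55 on the log2 scale, to 77.4 ± 17.0 and 31.9 ± 11.4 CPM (edgeR adjusted p = 3.57e-05 and 3.29e-05). Glrx, glutaredoxin, which removes glutathione from protein thiols, rose from 51.0 ± 15.1 to 266 ± 36.5 CPM (log2 fold change 2.40, SE 0.24 and adjusted p = 3.67e-05 with edgeR). In the other direction, Gpx8, a peroxidase of the endoplasmic reticulum like Prdx4, fell from 12.6 ± 1.40 to 3.40 ± 0.915 CPM (log2 fold change −1.90, SE 0.22 and adjusted p = 8.81e-05 with edgeR). Ugdh, which makes UDP-glucuronate, fell from 142 ± 16.1 to 43.7 ± 9.86 CPM (log2 fold change −1.70, edgeR adjusted p = 6.46e-05). Ptges, a prostaglandin E synthase, fell by 0.99 on the log2 scale, Btrc, a ligase subunit that can mark Nrf2 for degradation, by 0.97 and Ftl1, the light chain of ferritin, by 0.82 (edgeR adjusted p = 0.000698, 0.00364 and 0.00109).

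**Figure D4:**
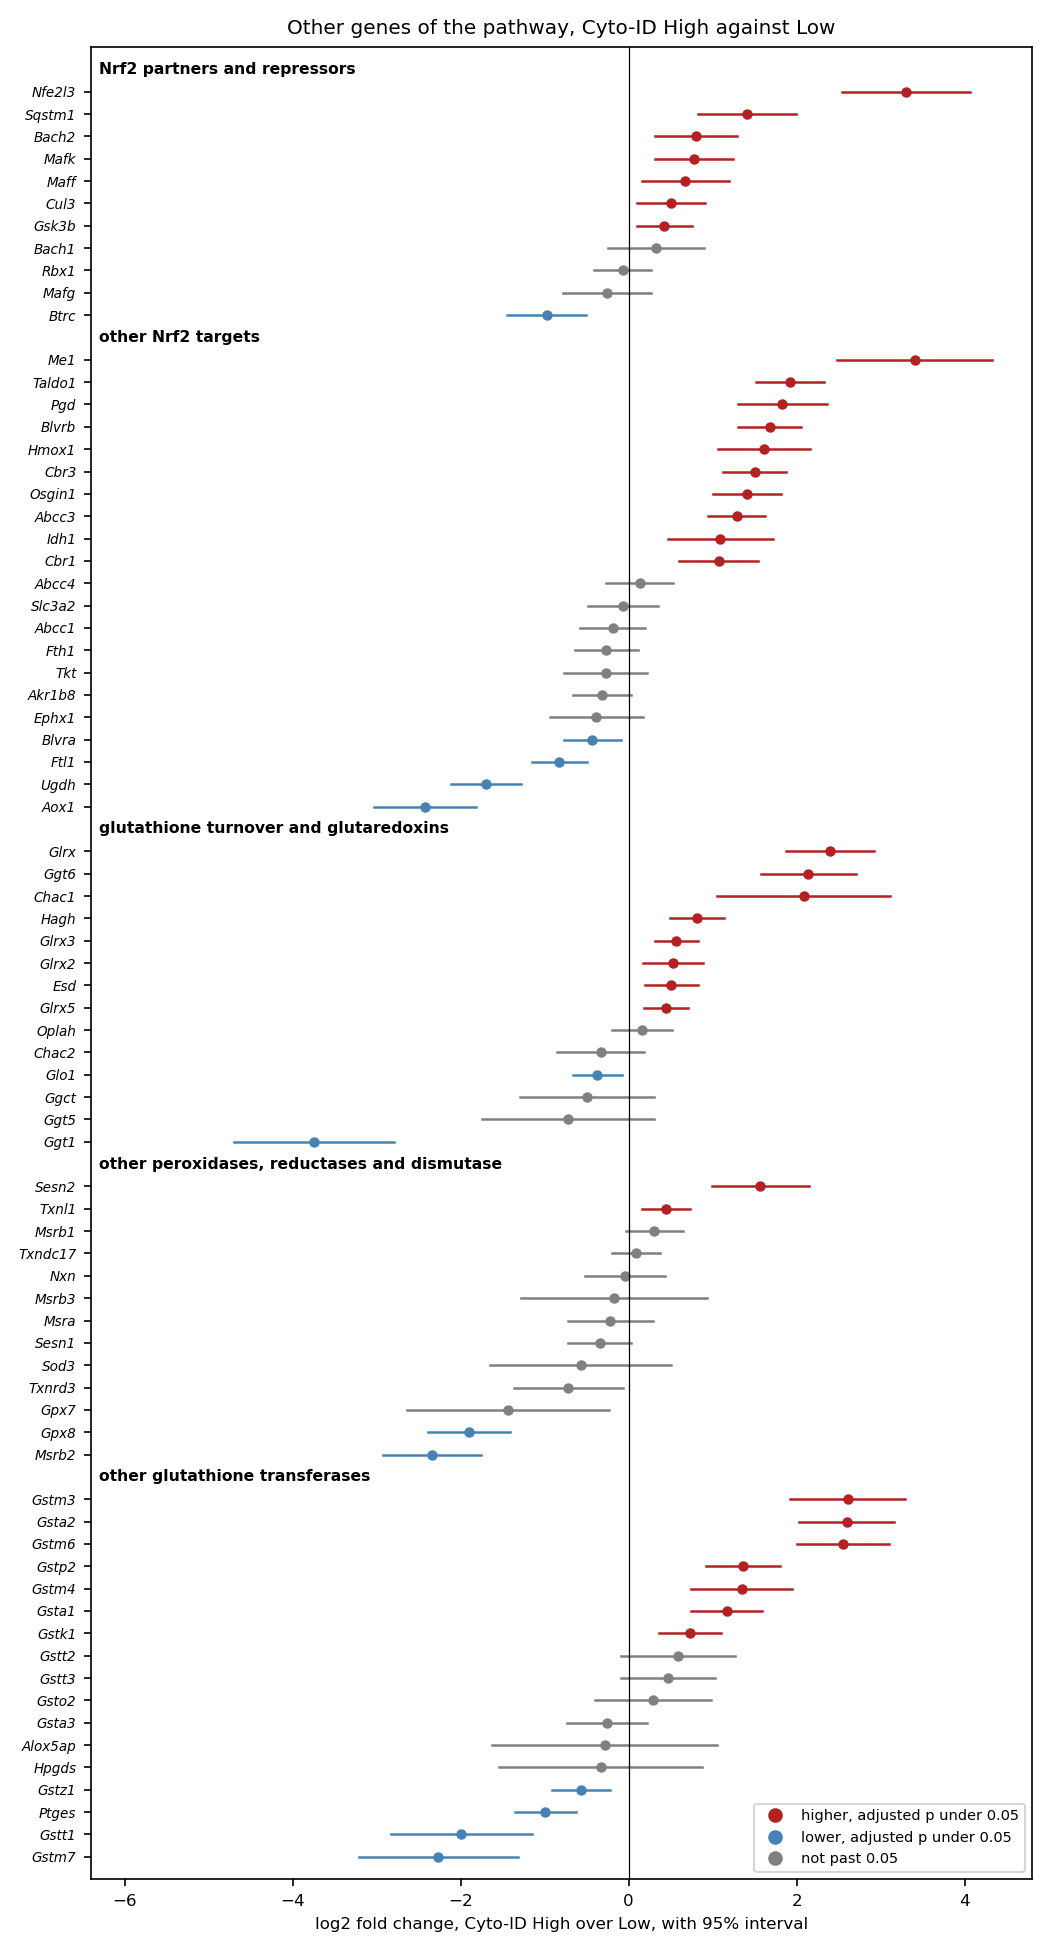
Log2 fold changes (x axis, Cyto-ID High over Low, edgeR with 95% intervals) of the 76 tested genes of the wider list, ordered within each group on the y axis and coloured by call. The groups hold genes on both sides of 0, with 34 called higher and 13 called lower.

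Several members share sequence with processed pseudogenes or sister genes, which can divide their counts. Gpx4 shared 34.7% of its 50-base stretches of exon with other genes, and Gpx4-ps2 held 80.5% of the counts of the pair in Low and 81.3% in High. Gpx4-ps2 itself fell from 49.6 ± 2.81 to 28.4 ± 9.06 CPM (log2 fold change −0.82, edgeR adjusted p = 0.00853), so the level of Gpx4 given above is only a part of what the pair collected. For Sod1 the copy Gm8566 held 32.8% in Low and 33.0% in High, and it fell by 1.57 on the log2 scale. Gm21399 held 40.8% and 40.9% with Prdx1, Gm6665 42.1% and 41.2% with Gstm2, and Gstm2-ps1 28.9% and 27.7% with Gstm1. Gstp-ps held 26.4% and 28.5% with Gstp1. The share of each copy was thus within 3 percentage points between the fractions. When the counts of such copies were added to their gene, none of the 9 members treated in this way changed its call or direction, and Gpx4 with its copy gave a log2 fold change of −0.81 (SE 0.23 and adjusted p = 0.0168 with edgeR).

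**Figure D5:**
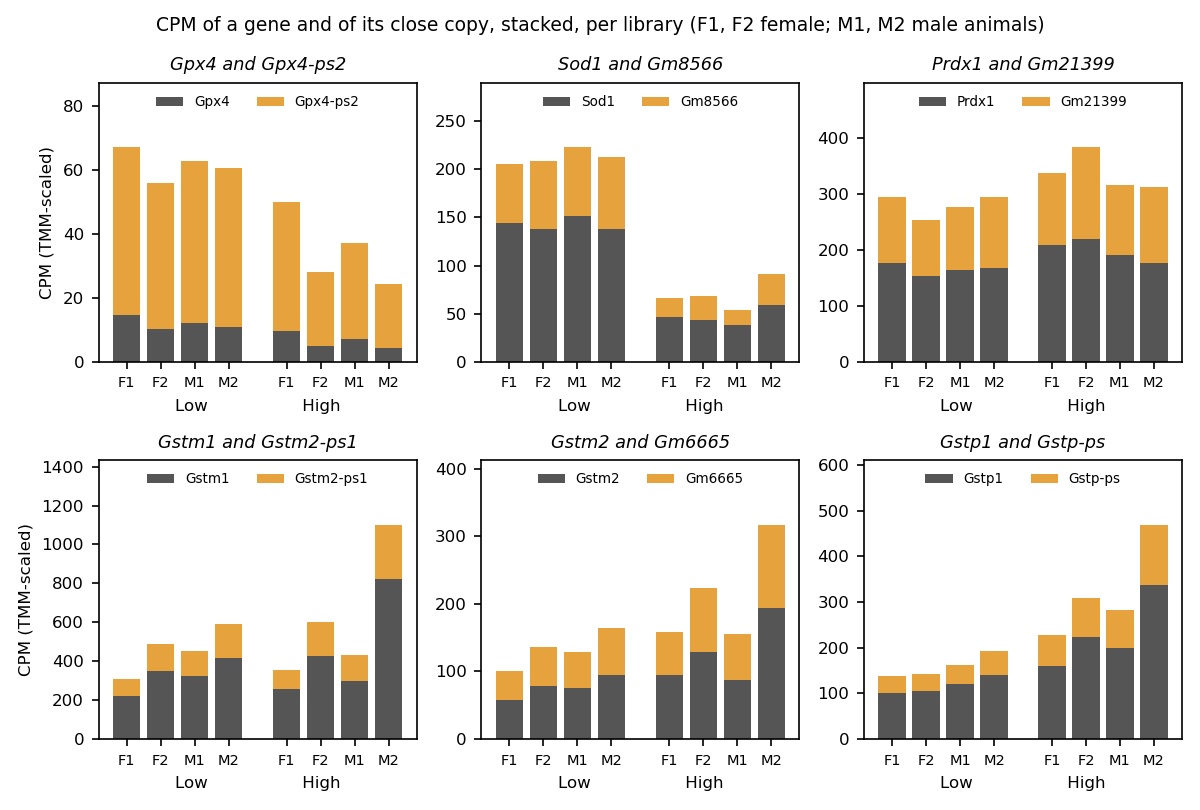
TMM-scaled CPM (y axis, from 0) of 6 members (grey) and of the close copy with which each shares sequence (orange, stacked) in each of the 8 libraries (x axis, F1 and F2 female, M1 and M2 male). The copy takes most of the Gpx4 pair, with 80.5% in Low and 81.3% in High, and a smaller, similar share of the other pairs in both fractions.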

How the data were processed

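The file the authors deposited gives counts by gene symbol for 8 bulk RNA-seq libraries, taken as raw because they are whole numbers with differing library totals. The submitters' processing notes name STAR 2.7.3, GRCm38 and DESeq2, with no role or order. The counting tool, annotation and use of strand are not given in the sources used here.

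Libraries were grouped by the Cyto-ID label. In R 4.3.3, edgeR 4.0.16 kept 17344 genes by filterByExpr, scaled libraries by TMM (trimmed mean of M values) and tested High against Low with glmQLFTest, two-sided, with sex as a covariate and Benjamini-Hochberg adjustment over all tested genes. CPM are TMM-scaled, log2 CPM use a prior count of 2, and standard errors were derived from the F statistic. Alternatives were RLE size factors, total counts, no filter, at least 10 counts in every library, DESeq2 1.42.0, limma-voom (limma 3.58.1), no covariate, a replicate block for the animal, and libraries left out. Animal names in the labels pair the fractions. Deviations from the fraction means correlated at 0.43, 0.32, −0.02 and 0.28 within Female1, Female2, Male1 and Male2. Between different animals they ran from −0.37 (Low Female1 with High Male2) to 0.35 (Low Female1 with High Male1), so these values alone do not settle the pairing.

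The members and lists were chosen with earlier results of these data known. All members are named. Of the wider list, values are given for the 5 called genes with the largest change in each direction and a mean of at least 5 CPM. Markers are given as sums. Coordinates, exon lengths, overlaps and shared 50-base stretches come from GENCODE M21, and promoters from RefSeq.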

Additional observations from a re-analysis of the deposited data

Results flagged for a closer look

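Within each fraction, a library was singled out where its gap to the nearest of the other 3 took up most of the range of the 4 (Dixon's 95% critical value). This was so in 4 of 76 groups of 4 for members (5.26%), where chance alone gives about 1 in 20, and in 3 of 24 for marker lists. Among members, High Male2 stood above the other High libraries for Gpx2 at 1249 CPM (the others at 696, 721 and 789), for Txn2 at 134.9 CPM (81.4, 85.0 and 89.6) and for Mgst3 at 186 CPM (121, 123 and 127). Low Male2 stood above the other Low libraries for Prdx2 at 139 CPM (108, 111 and 113). The TMM factor of Male2 was the smallest in each fraction. Per total counts Gpx2 still stood apart in High Male2, while Txn2, Mgst3 and Prdx2 did not, and Keap1 in Low Female2, Slc7a11 in Low Male1 and Sod1 in Low Male2 did. Among summed marker lists, the gastric list reached 19.1 CPM in Low Female2 and 115 CPM in High Female2. The muscle list stood at 77.0 CPM in Low Female1, against 51.3, 51.3 and 54.5 CPM in the other Low libraries.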

How the results depend on the processing

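Of the 28 members called, 20 kept their call and direction in all 17 alternatives, and the same 28 were called with limma-voom and with the animal as a replicate block. Under the replicate block 9336 genes, 21 members higher and 10 lower were called, with Nfe2l2, Cat and Gsto1 added. Scaling by total counts only moved the results most: 20.5% of called genes were higher in place of 48.0%, the members' median was −0.13 in place of 0.45, and 21 wider genes were called higher and 31 lower in place of 34 and 13. Mgst1 and Mgst2 reversed under it, to −0.11 and −0.14, and 7 members not called (Nfe2l2, Nqo1, Txn1, Txn2, Prdx1, Gstm1, Gsto1) also fell below 0. With it, 23 of the 28 members kept a call, Prdx3, Gstm5 and Gstm2 lost theirs, and Txnrd1 and Cat became called lower. Which scaling is closer to the RNA content of the cells was not tested. DESeq2 also called Nfe2l2, Prdx1 and Gsto1 higher, and limma-voom Gsto1. Leaving out 1 library at a time gave 7269 to 8106 called genes, 16 to 20 members higher and 7 to 8 lower, a members' median of 0.38 to 0.56, and 30 to 34 wider genes higher and 11 to 15 lower. Chosen after seeing the data were the fits with close copies added (20 members higher, 9 lower) and without both libraries of Male2 (17 and 7), and the order of libraries per total counts. Depth limits Txnrd2, with 7 to 37 counts per library, and Gpx3, with 3 counts in High Male2.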

Other observations

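Further lists of genes around these systems were drawn up after the data had been seen, so their counts are descriptions. Of 10 tested genes of cysteine and methionine metabolism and transport, 0 were called higher and 9 lower in Cyto-ID High (edgeR, adjusted p under 0.05), where 23.4% and 25.3% of all tested genes were, while the cystine carrier gene Slc7a11 rose. The neutral amino acid carrier Slc1a4 averaged 97.1 ± 15.3 CPM in Low and 9.75 ± 4.00 CPM in High (SD, n = 4 each), which is −3.34 as log2 fold change (SE 0.25 and adjusted p = 1.44e-05 with edgeR). The transsulfuration genes Cbs and Cth, whose products make cysteine from homocysteine, fell by 2.66 and 1.92 on the log2 scale (edgeR adjusted p = 7.27e-05 and 6.29e-05). Mtr, methionine synthase, fell by 2.57 and the glutamine carrier gene Slc1a5 by 1.91 (edgeR adjusted p = 1.39e-05 and 2.34e-05). Cdo1 and Csad, whose products lead cysteine towards taurine and so do not supply it, fell by 1.57 and 1.65 (edgeR adjusted p = 0.0184 and 7.15e-05). Mat2b was the tested gene of the list that was not called.

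Other genes around NADPH were split, with 4 called higher and 4 lower of 10, beside the same 23.4% and 25.3% over all tested genes. Mthfd1 of the cytosolic folate pathway went from 129 ± 14.4 down to 14.9 ± 3.80 CPM (log2 fold change −3.13, edgeR adjusted p = 1.27e-05), and its mitochondrial relative Mthfd2 rose by 0.98 (edgeR adjusted p = 0.0131). The mitochondrial transhydrogenase gene Nnt fell from 10.6 ± 0.930 to 2.05 ± 0.415 CPM, by 2.37 on the log2 scale, and H6pd of the endoplasmic reticulum by 1.78. Of 8 genes for making and inserting selenocysteine, the residue used by Gpx1, Gpx2, Gpx4 and the thioredoxin reductases, 2 were called higher and 2 lower, and of 12 other selenoprotein genes 2 higher and 3 lower, which is near the share of all tested genes. Among the last, Selenon fell from 7.13 ± 0.854 to 1.55 ± 0.589 CPM (log2 fold change −2.19, edgeR adjusted p = 0.000174) and Selenos rose from 28.7 ± 2.34 to 46.3 ± 4.53 CPM (0.69, edgeR adjusted p = 0.00163).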
